A study of Mus musculus with 2 samples.

Results

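The miRNAs of the Dlk1-Dio3 imprinted cluster were examined in exosomes of 2 mouse pancreatic cell lines. A miRNA of the array was counted as a member when its name carried one of the family numbers that belong to this cluster, whatever its letter suffix or arm. This gave 110 of the 1881 mouse miRNAs on the array, and the RefSeq tables (GRCm38.p6) placed 109 of them, from 56 hairpins, on chromosome 12 between Dlk1 and Dio3. The remaining one, miR-496b, was placed on chromosome 19 and was detected in neither sample. KPC-exosomes came from 1 tumor cell line, derived from pancreatic tumor tissue of engineered mice that carry Trp53LSL-R172H/+ and Pdx1-Cre, in which Cre driven by the Pdx1 promoter switches on mutant p53 in the pancreatic lineage. MPDC-exosomes came from 1 purchased line of mouse pancreatic ductal epithelial cells, for which the labels name no allele or animal. KPC cells grew in RPMI-1640 with 20% fetal bovine serum and MPDC cells in DMEM with 10%, so line, genotype, medium and serum cannot be told apart. Exosomes were collected by differential ultracentrifugation, their total RNA was isolated, and each preparation was measured on 1 array of the same slide. There is therefore no replicate check, no test and no p-value in what follows, and the errors given are those of the scanner.

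The cluster lies in an imprinted domain. Dlk1, Rtl1 and Dio3 are transcribed from the paternal chromosome, while the maternal chromosome gives rise to long non-coding RNAs, among them Meg3, Rian and Mirg, and to the miRNAs. A methylated control region between Dlk1 and Meg3 sets this pattern. The miRNAs are known from embryo, placenta and brain and are sensitive markers of the state of the locus in pluripotent cells. Several of them, such as miR-127, miR-431, miR-433, miR-434 and miR-136, are encoded opposite to Rtl1 and are fully complementary to its transcript. The miR-379 to miR-410 group further on is one of the largest miRNA clusters of placental mammals and is known for a role in energy supply of the newborn mouse.

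The mature sequences of the members on which the differences turn are shown first, 5′ to 3′ as RefSeq gives them, with the seed (bases 2 to 8, which pair with target mRNAs) in capitals. The first set had the stronger signal in MPDC-exosomes on every scale used.
miR-494-3p: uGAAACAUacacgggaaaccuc
miR-341-3p: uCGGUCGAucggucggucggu
miR-370-3p: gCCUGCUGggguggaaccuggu
miR-382-5p: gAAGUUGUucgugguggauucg
The second set had the stronger signal in KPC-exosomes on every scale used, though not always by 2-fold, or was detected there only.
miR-1188-5p: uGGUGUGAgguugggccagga
miR-369-5p: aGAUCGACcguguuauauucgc
miR-376a-3p: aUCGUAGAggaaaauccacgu
miR-770-5p: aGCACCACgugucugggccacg
miR-667-5p: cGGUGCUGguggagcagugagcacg
miR-758-5p: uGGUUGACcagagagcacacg
miR-882: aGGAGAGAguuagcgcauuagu
miR-666-3p: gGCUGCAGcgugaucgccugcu
The third set is a pair of members with nearly the same unnormalized signal on both arrays.
miR-134-5p: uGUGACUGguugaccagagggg
miR-3072-5p: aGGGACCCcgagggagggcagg
The 106 members with a RefSeq sequence had 98 different seeds, and no seed occurs more than once among the miRNAs printed above. The seed was shared within 8 pairs, and in 2 of those pairs both partners were detected. These were the miR-3070 arms and the miR-299 arms, which differ in few bases and are shown for the question of whether their probes can tell them apart.
miR-3070-3p: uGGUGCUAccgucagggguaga
miR-3070-2-3p: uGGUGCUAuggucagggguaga
miR-299a-3p: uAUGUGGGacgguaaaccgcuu
miR-299b-3p: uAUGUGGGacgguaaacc

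Signal was the total probe signal of the scanner file, summed over the probes of a miRNA that exceeded 3 times their own error, and a miRNA with at least 1 such probe was called detected. Over all 1881 miRNAs, 772 were detected in KPC-exosomes, 1031 in MPDC-exosomes and 726 in both. The arrays differed as a whole. The miRNAs detected on both had a median log2 difference, KPC minus MPDC, of -1.37 before normalization and of 0.53 after quantile normalization, the setting that gave back the deposited values. The 4 spike-in controls differed by -0.31 to 0.38 before normalization. Differences are therefore given on both scales, unnormalized and quantile normalized. Of 7 miRNAs fixed as markers of ductal epithelium, 5 were detected in KPC-exosomes with a summed signal of 98.8 and 7 in MPDC-exosomes with 1781. The 5 mesenchymal markers were all undetected in KPC-exosomes and all detected in MPDC-exosomes, with a summed signal of 226. Of 5 pancreas markers 1 was detected in each sample, miR-217-5p in KPC-exosomes and miR-148a-3p in MPDC-exosomes, while miR-375-3p, miR-216a-5p and miR-216b-5p were detected in neither. Of 5 blood cell markers 4 were detected in each, with summed signals of 265 and 426. The part of these differences in the results on the cluster was not tested. In bulk RNA, more exosomes of one kind and more of a miRNA per exosome cannot be told apart.

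The cluster was detected in part. Signal was found for 25 of the 110 members in KPC-exosomes and for 34 in MPDC-exosomes, 21 members were detected in both, 4 in KPC-exosomes alone, 13 in the MPDC sample alone, and 72 in neither. A member was thus detected on at least 1 array in 34.5% of cases, beside 57.3% of all miRNAs of the array. The 4 and 13 members found in 1 sample alone, of 38 detected, stand beside 46 and 305 of all 1077 detected miRNAs. The 38 detected members came from 31 hairpins. The signals ran from 1.84 to 1478 in KPC-exosomes with a median of 15.8, and from 1.51 to 15292 in MPDC-exosomes with a median of 12.9. The detected miRNAs of the whole array had medians of 29.9 and 51.2. Members made up 0.651% of the summed miRNA signal of KPC-exosomes and 1.32% of that of MPDC-exosomes, and miR-494-3p alone supplied 52.9% and 82.5% of these cluster sums, a share that also depends on how well its probes bind. No probe of a member was saturated on either array.

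**Figure D1:**
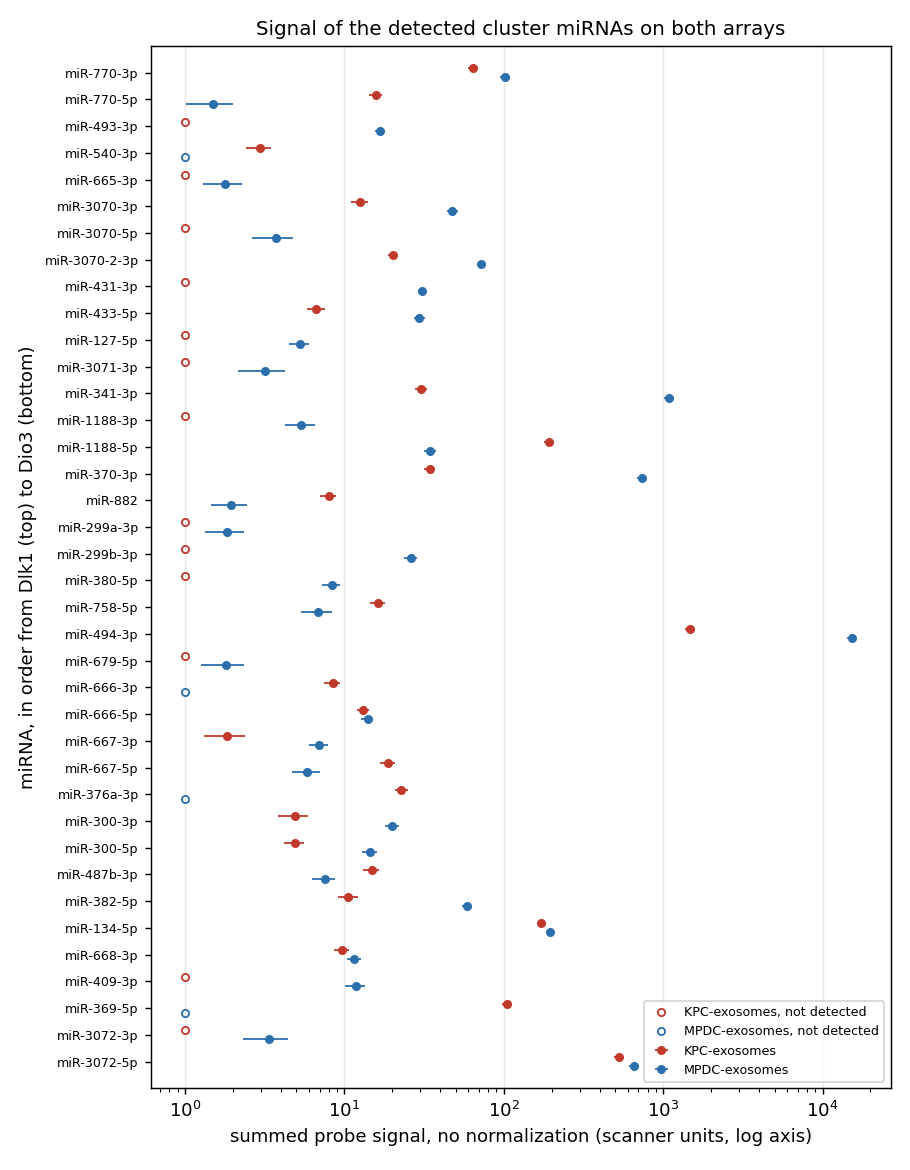
Summed probe signal (log axis, scanner units, no normalization) of the 38 detected members in KPC-exosomes (red) and MPDC-exosomes (blue), in their order from Dlk1 to Dio3, with bars for the scanner error. Open circles at the left edge stand for a member that was not detected and have no value. The signals of miR-494-3p, miR-341-3p and miR-370-3p lie far to the right in MPDC-exosomes, and those of miR-1188-5p and miR-369-5p in KPC-exosomes.

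With the 2-fold filter of the study, after quantile normalization and with an undetected signal set to 0.1, 17 of the 38 detected members were higher in KPC-exosomes, beside 31.5% of all 1077 detected miRNAs, and 16 were lower, beside 42.7%. The members' shares were 44.7% and 42.1%. Without normalization 9 members were higher, beside 11.1% of all, and 23 were lower, beside 68.0%, so the members' shares were 23.7% and 60.5%. Of the 16 lower members 13 were undetected in KPC-exosomes and were called against the floor of 0.1. With bounds in place of the floor, 4 members (10.5%) were lower after normalization, beside 24.6% of all, and 17 (44.7%) were higher, again beside 31.5% of all. These shares describe these 2 arrays and were not tested. Of the 21 members with a value in both samples, 5 were stronger in KPC-exosomes by 2-fold or more on both scales and 3 were weaker by as much on both. Of all 726 miRNAs with a value in both, 74 were stronger by as much without normalization and 155 were weaker by as much after it. Normalization raised each log2 difference by at least 1.36, so these counts hold on both scales.

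The 3 members that were lower on both scales were miR-494-3p, miR-341-3p and miR-370-3p. miR-494-3p, which belongs to the miR-379 to miR-410 group, had a signal of 1478 ± 114 in KPC-exosomes and of 15292 ± 1141 in MPDC-exosomes (scanner error). Signal was therefore 10.3-fold lower in KPC-exosomes without normalization and 2.76-fold lower after it. Its 2 probes lie at chr12:110953585-110953598 on the mm9 build used by the scanner files. The spots of the 14-base probe gave processed signals of 3472 to 3905 in KPC-exosomes and of 36246 to 38108 in MPDC-exosomes, so the spots of the arrays did not overlap. Its partner arm miR-494-5p was detected in neither sample.

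miR-341-3p and miR-370-3p are encoded within Rian. For miR-341-3p the KPC-exosomes gave a signal of 30.3 ± 2.52 and the MPDC-exosomes one of 1095 ± 77.9. Without normalization it was 36.2-fold lower in KPC-exosomes, the largest such difference of any member measured on both arrays, and after normalization 11.3-fold lower. For miR-370-3p the signals were 34.3 ± 2.81 and 733 ± 52.0, 21.4-fold lower in KPC-exosomes without normalization and 6.11-fold lower after it. All probes of both miRNAs moved the same way, by log2 differences of -5.26 and -5.08 for miR-341-3p and of -4.64 and -4.25 for miR-370-3p.

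Between these miRNAs lies miR-1188, and its 5p arm went the other way. miR-1188-5p had a signal of 192 ± 13.7 in KPC-exosomes and of 34.6 ± 2.83 in MPDC-exosomes, which was 5.55-fold higher in KPC-exosomes without normalization and 18.3-fold higher after it. On mm9 its probes, at chr12:110850059-110850071, begin 286 bases after those of miR-341-3p (chr12:110849773-110849786) and 6464 bases before those of miR-370-3p (chr12:110856523-110856536). These single arms of neighbouring hairpins within the same host RNA thus differed in opposite directions between the arrays and by more than the scanner error.

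miR-369-5p, encoded within Mirg, was the clearest member of KPC-exosomes alone. Both of its probes were detected there, with a summed signal of 106 ± 7.97, and neither was detected in MPDC-exosomes. The lowest spot of these probes in KPC-exosomes had a processed signal of 91.6 and the highest spot in MPDC-exosomes one of 7.07. A bound was set against whichever was higher on the other array, its lowest detected signal or what all probes of the miRNA gave there. By this bound miR-369-5p was at least 70.0-fold higher in KPC-exosomes without normalization and at least 510-fold higher after it. The bounds given for this and other members follow from this rule only. Undetected members reached up to 5.15 over all their probes in KPC-exosomes and 4.91 in MPDC-exosomes, so a true fold can be lower than its bound. miR-376a-3p, of a family whose precursors are known to be edited from A to I within the seed, had a signal of 22.8 ± 2.10 in KPC-exosomes and was not detected in MPDC-exosomes, at least 15.1-fold higher without normalization. Its spots did not overlap between the arrays either, with a lowest value of 26.5 in KPC-exosomes and a highest of 9.92 in MPDC-exosomes. It was the only one of the 6 miR-376 arms on the array to be detected.

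The other members with a stronger signal in KPC-exosomes were dim. With normexp, an alternative background correction, the log2 differences of miR-770-5p, miR-667-5p, miR-758-5p and miR-882 were 0.76, 0.84, 0.77 and 0.44. These are less than 2-fold, whereas miR-1188-5p stayed at 2.72 there. miR-770-5p, encoded within Meg3, had a signal of 15.8 ± 1.47 in KPC-exosomes with all 4 probes detected, and of 1.51 ± 0.49 in MPDC-exosomes with 1 probe detected. This was a 10.5-fold difference without normalization. The single probe that was detected on both arrays differed by a log2 value of only 0.25, with signals of 1.79 ± 0.474 and 1.51 ± 0.49. The 10-base probe carried most of the signal in KPC-exosomes, at 9.95 ± 1.20, against 1.43 ± 0.552 in MPDC-exosomes, below its detection limit. The signal of miR-770-5p over all 4 probes in MPDC-exosomes, detected or not, was 5.56.

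miR-667-5p had signals of 18.8 ± 1.98 and 5.83 ± 1.16 in KPC- and MPDC-exosomes, 3.22-fold higher in KPC-exosomes without normalization. Here too the probes did not act together, since the 14-base probe gave 5.01 ± 1.06 and 5.83 ± 1.16, and the 13-base probe 13.8 ± 1.67 and 1.64 ± 1.01. miR-758-5p had signals of 16.3 ± 1.76 and 6.86 ± 1.49, 2.38-fold higher, and both of its probes differed alike, by log2 values of 1.19 and 1.30. For miR-882, which lies between Rian and miR-379, only the longest of 4 probes was detected on either array, with 7.96 ± 0.912 and 1.95 ± 0.505, a 4.08-fold difference. miR-487b-3p had signals of 14.8 ± 1.73 and 7.52 ± 1.26, a 1.97-fold difference that fell just short of the 2-fold threshold without normalization and came to 31.9-fold after it.

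miR-666-3p was detected in KPC-exosomes only, by 3 of 4 probes with a summed signal of 8.45 ± 0.97, and was at least 5.61-fold higher without normalization. miR-540-3p, encoded within the span of Rtl1, was detected there by 1 of 4 probes with 2.94 ± 0.523. It was at least 1.13-fold higher without normalization, so a difference of 2-fold was not shown for it on that scale. The spots of this probe still stood apart, at 20.0 to 24.1 in KPC-exosomes and 3.95 to 8.47 in MPDC-exosomes, while the longest probe gave 0.983 ± 0.446 and 1.33 ± 0.485 and was detected on neither array.

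For a further group the direction depended on the scale. miR-134-5p, a brain miRNA known to limit dendritic spine growth through Limk1, had a signal of 171 ± 8.68 in KPC-exosomes and of 196 ± 9.93 in MPDC-exosomes. Its log2 difference was -0.20 ± 0.10 (scanner error) without normalization, within 2 errors of 0, and 1.48 after it. miR-3072-5p, at the Dio3 end of the group, had signals of 528 ± 38.2 and 655 ± 47.4 and log2 differences of -0.31 and 1.33. miR-770-3p had signals of 64.4 ± 4.45 and 102 ± 7.09 and log2 differences of -0.66 and 1.09. In these 3 members the step from one scale to the other was about as large as in the bright members named above.

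miR-666-5p, miR-668-3p and miR-300-5p were moved further. The signals of miR-666-5p were 13.1 ± 1.14 and 14.0 ± 1.22 in KPC- and MPDC-exosomes, with log2 differences of -0.10 without normalization and 4.35 after it. Those of miR-668-3p were 9.65 ± 1.06 and 11.6 ± 1.16, with -0.26 and 4.0. Those of miR-300-5p were 4.90 ± 0.70 and 14.5 ± 1.55, with -1.57 and 3.07. Quantile normalization moved 9 members with a signal below 15 in MPDC-exosomes, all of them measured on both arrays, upwards by 2.85 to 4.63 on the log2 scale, and all 9 of them passed the 2-fold filter as higher in KPC-exosomes. The other 12 were shifted by 1.64 to 2.07, and 4 of them passed it as higher. Folds of dim members after quantile normalization thus contain a larger step from the normalization itself.

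For 5 more members measured on both arrays the signal was weaker in KPC-exosomes before normalization and within 2-fold after it. miR-3070-3p had signals of 12.5 ± 1.59 and 47.7 ± 3.67, and miR-3070-2-3p of 20.3 ± 1.60 and 72.5 ± 4.36, with log2 differences of -1.93 and -1.84 without normalization and of -0.16 and -0.03 after it. All 5 probes of this pair moved alike, and none of them matched the mature sequence of the other. miR-433-5p, encoded opposite to Rtl1, had 6.67 ± 0.85 and 29.6 ± 2.26, and miR-382-5p had 10.6 ± 1.53 and 59.0 ± 4.41, a 5.56-fold lower signal without normalization and a 1.63-fold lower one after it. miR-300-3p had 4.87 ± 1.05 and 19.9 ± 2.01, with log2 differences of -2.03 and 0.04.

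**Figure D2:**
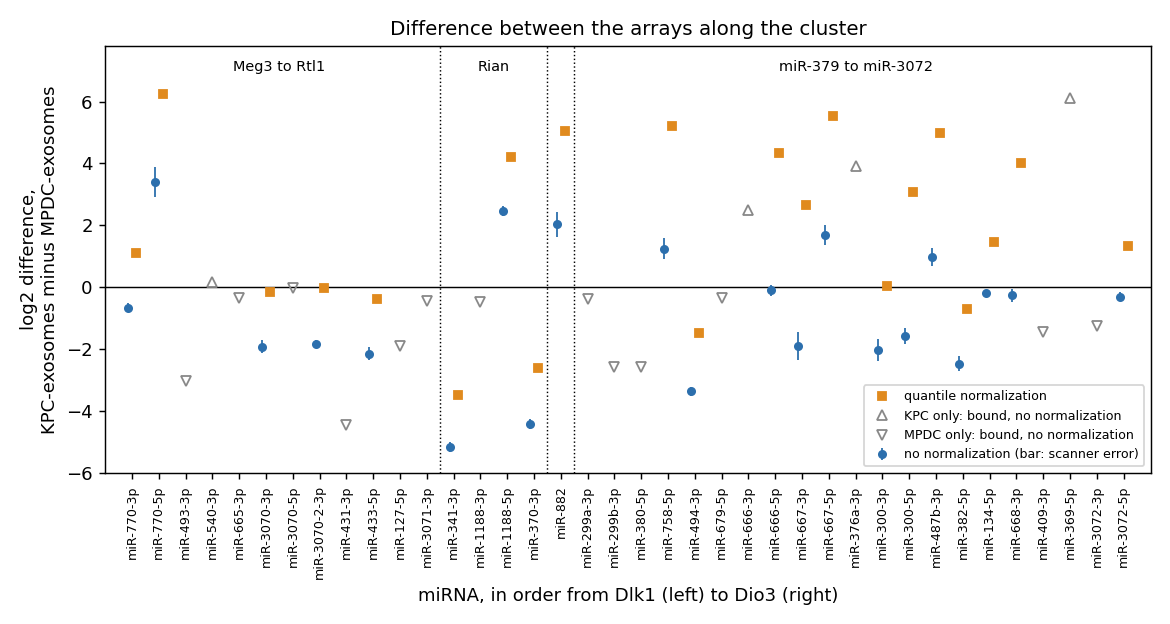
Log2 difference, KPC-exosomes minus MPDC-exosomes, of the 38 detected members in their order from Dlk1 to Dio3. Circles are unnormalized values with the scanner error, squares are quantile normalized values, and triangles are the bounds of members detected on 1 array, without normalization. Circles lie below 0 for 15 of the 21 members measured on both arrays and squares lie below 0 for 7, and miR-341-3p and miR-370-3p are low on either side of a high miR-1188-5p.

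The 13 members found in MPDC-exosomes alone were dim, with signals of 1.79 to 30.7. miR-431-3p, encoded opposite to Rtl1, had 30.7 ± 1.85 with all 4 probes detected, and was at least 21.8-fold lower in KPC-exosomes without normalization and at least 3.74-fold lower after it. miR-493-3p had 16.8 ± 1.31, also with all 4 probes, and was at least 8.11-fold lower without normalization and at least 1.33-fold lower after it. miR-409-3p had 11.8 ± 1.64 and was at least 2.76-fold lower without normalization, with no bound after it. miR-299b-3p had 26.1 ± 2.35 and was at least 5.95-fold lower without normalization and at least 1.55-fold lower after it. For the other 9 the bounds without normalization were 1.03-fold to 5.93-fold, and 8 of the 13 rested on 1 detected probe.

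The value of miR-299b-3p cannot be assigned to that miRNA alone. As printed above, miR-299b-3p is contained in miR-299a-3p, and both of its probes match miR-299a-3p as well. These 2 probes, of 14 and 15 bases, gave 13.6 ± 1.72 and 12.5 ± 1.61 in MPDC-exosomes. The 4 probes that are specific for the 3′ end of miR-299a-3p gave 1.84 ± 0.504 for the longest and were below 3 errors for the rest. The probes of miR-299b-5p likewise match miR-299a-5p. Some but not all probes of miR-758-3p match miR-412-3p, and the 10-base probe of miR-770-3p matches miR-7087-5p. Of these probes only that of miR-770-3p was detected.

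Where several probes of a member were detected on both arrays, they mostly pointed the same way. This was so in 10 of 13 members before normalization, with a spread between their probes of at most 0.99 on the log2 scale. In miR-666-5p and miR-668-3p the probes fell on both sides of 0. In miR-770-3p they disagreed strongly. Its 10-base probe had a signal of 40.4 ± 4.10 in KPC-exosomes and of 4.12 ± 0.673 in MPDC-exosomes, whereas its 12-base probe had 7.30 ± 0.854 and 64.3 ± 6.48. The 11- and 13-base probes were also higher in MPDC-exosomes, with 3.84 ± 0.627 against 7.37 ± 0.911 and 12.9 ± 1.37 against 26.0 ± 2.66. The small difference of the summed signal of miR-770-3p therefore hides log2 differences from -3.14 to 3.29. miR-433-5p showed a like pattern, as its 19-base probe was detected in KPC-exosomes only (4.70 ± 0.703) and its 20-base probe in MPDC-exosomes only (11.5 ± 1.25). What each probe bound was not tested.

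**Figure D3:**
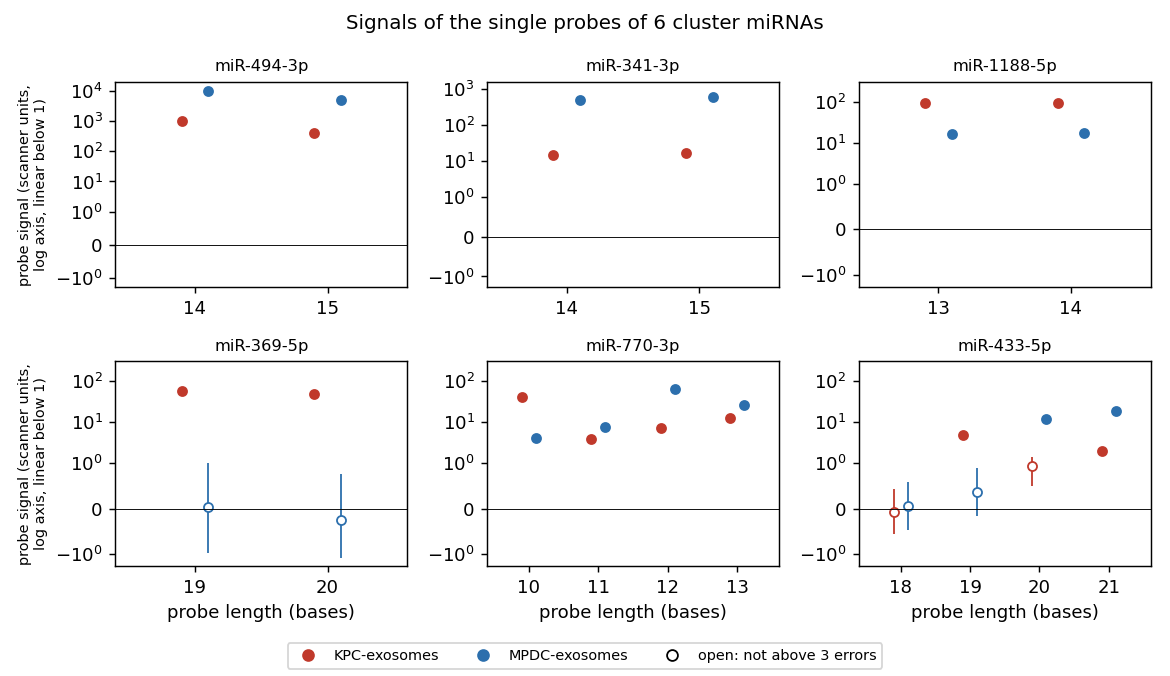
Signals of the single probes of 6 members by probe length, in KPC-exosomes (red) and MPDC-exosomes (blue), with bars for the scanner error and open circles for probes below 3 errors. The axis is logarithmic above 1 and linear below. The probes of miR-494-3p, miR-341-3p, miR-1188-5p and miR-369-5p move together, those of miR-770-3p and miR-433-5p cross.

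Each hairpin can give a 5p and a 3p miRNA from the same precursor. Of the 53 hairpins with both arms on the array, 7 had both arms detected, 21 had 1 arm and 25 had none. The arms named only here were chosen after their values were seen. In miR-1188 the 5p arm was stronger in KPC-exosomes, while the 3p arm was detected in MPDC-exosomes only (5.38 ± 1.13). That detection rested on 1 probe, and the bound without normalization was 1.39-fold. In miR-667 the 5p arm had the stronger unnormalized signal in KPC-exosomes and the 3p arm in MPDC-exosomes, with 1.84 ± 0.529 against 6.92 ± 0.937. After quantile normalization both arms were higher in KPC-exosomes, miR-667-3p by 6.37-fold. In miR-770 the unnormalized signals of the arms also lay on opposite sides, and in miR-666 the 3p arm was detected in KPC-exosomes only while the 5p arm had almost equal signals. In miR-300, miR-3070 and miR-3072 all arms had the stronger unnormalized signal in MPDC-exosomes or were detected there alone. The latter were miR-3070-5p (3.70 ± 1.07) and miR-3072-3p (3.36 ± 1.05), each by 1 probe. Their bounds without normalization were 1.03-fold and 2.39-fold. Over the whole cluster 22 of 55 members from 3p arms and 15 of 53 from 5p arms were detected.

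Along the locus the stretches held members of both directions. Of 27 members in the stretch of Meg3 and Rtl1, 12 were detected, 5 of them on both arrays, and 1 of these 5, miR-770-5p, had the stronger unnormalized signal in KPC-exosomes. Their median log2 difference was -1.84 without normalization and -0.03 after it. In this stretch 6 members were detected in MPDC-exosomes only and 1, miR-540-3p, in KPC-exosomes only. Of the 6 members within Rian 4 were detected. Of the 75 members from miR-379 to miR-3072, 21 were detected, 12 of them on both arrays, with median log2 differences of -0.29 and 2.87 and 3 of the 12 stronger in KPC-exosomes without normalization. A further 3 of these 75 members were found in KPC-exosomes alone, and 6 in those of MPDC cells alone.

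The best known members of the cluster were mostly absent from the detected set. Of 14 arms of miR-127, miR-379, miR-410, miR-411 and the miR-376 family, 2 were detected, namely miR-376a-3p as described and miR-127-5p, by 1 of 4 probes in MPDC-exosomes (5.26 ± 0.76). miR-127-3p, the arm usually taken as the major product, had signals over all its probes of -0.0055 in KPC-exosomes and 0.408 in MPDC-exosomes, where values near 0 are background. For miR-410-3p these were -0.235 and 1.97, and for miR-379-5p -0.0080 and 4.91. Over the 72 undetected members the signals of all probes lay between -1.93 and 5.15 in KPC-exosomes and between -2.10 and 4.91 in MPDC-exosomes, and the lowest detected signals of any miRNA were 1.41 and 1.51. For these members only an upper limit was measured, and no difference between the samples can be given.

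Detected and undetected members differed in base composition, which the choice of members did not use. The 37 detected members with a RefSeq sequence had a median GC content of 59.1% (quartiles 50% and 66.7%) and the 69 undetected ones one of 45.5% (quartiles 40.9% and 54.5%). Over all miRNAs of the array with a sequence the medians were 54.5% for 899 detected and 50% for 709 undetected ones. Of the members with a GC content of at least 60%, 16 of 21 (76.2%) were detected, as were 76.4% of all such miRNAs of the array. Below 50% GC, 8 of 51 members (15.7%) were detected, beside 44.2% of all such miRNAs. miR-494-3p and miR-369-5p, both at 45.5% GC, were among these 8. The longest probe had a median of 15 bases for detected and 18 bases for undetected members, beside 16 and 17 bases over all miRNAs with a sequence. Probes of this platform are shortened to even out their binding strength. Mature length had a median of 22 bases in detected and undetected members alike. No test was made, and composition and abundance cannot be told apart here.

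**Figure D4:**
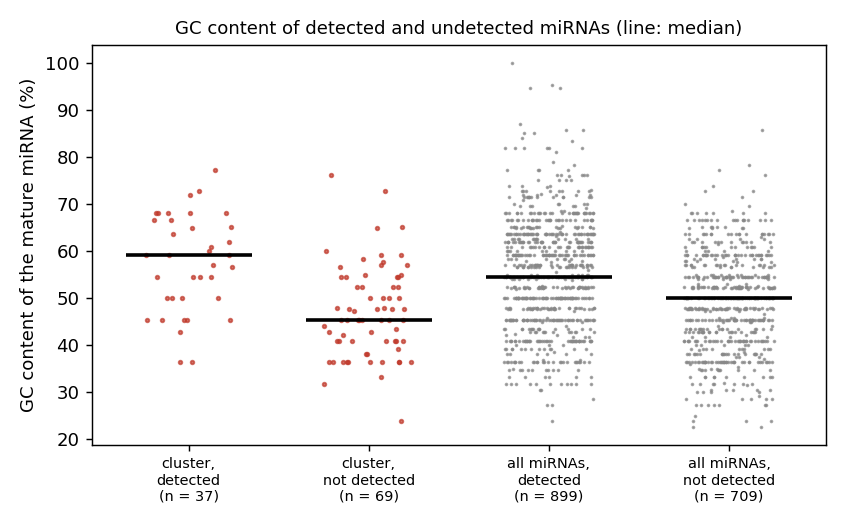
GC content (%) of the mature sequence of each miRNA, for detected and undetected cluster members (red) and for detected and undetected miRNAs of the whole array (grey), with lines at the medians. The medians of the members are 59.1% and 45.5%, those of the array 54.5% and 50%.

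The members measured on both arrays had a median log2 difference of -0.66 without normalization and of 1.48 after quantile normalization. The sign of the median therefore depended on the scale. Set against all miRNAs detected on both arrays, the members' median was higher by 0.71 and by 0.95 on these scales. By single members, 11 of the 21 lay above the median of all miRNAs on both scales, 8 lay below it on both scales and 2 changed sides. The unnormalized differences of the members spread from -5.18 to 3.39, with quartiles of -2.03 and 0.98, whereas the scanner error of a difference was 0.10 to 0.49. Of the 21 members 6 were higher in KPC-exosomes and 12 lower by more than 2 scanner errors, and 3 were within them. Whatever the error, 6 members were higher and 15 lower, beside 135 and 591 of all 726 miRNAs measured on both arrays. The members thus differed among themselves by more than the scanner error, in both directions. That error does not cover disagreement between the probes of a member. In miR-770-5p, at 3.39, the single probe detected on both arrays differed by 0.25, and in miR-667-5p by -0.22. All probes of miR-1188-5p and of miR-758-5p were higher in KPC-exosomes.

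**Figure D5:**
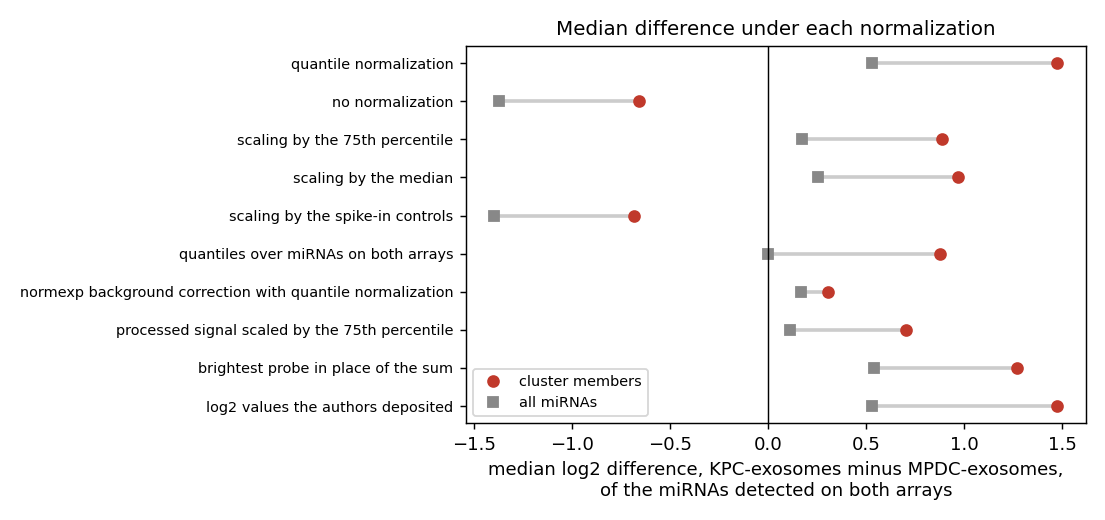
Median log2 difference, KPC-exosomes minus MPDC-exosomes, of the members (red) and of all miRNAs (grey) detected on both arrays, under 10 ways of scaling the arrays. The members' median lies above that of all miRNAs in all 10, by as little as 0.13 with normexp. The gap is 0.71 without normalization, and scaling an array as a whole cannot change it. The deposited values repeat the quantile normalization, so the 10 ways are not independent of each other. The members' median lies below 0 where the signals are left as they are or scaled to the spike-ins.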

How the data were processed

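Exosomal miRNAs of 1 KPC and 1 MPDC preparation were measured on 1-colour Agilent mouse miRNA arrays of the same slide. The authors deposited scanner files with background-subtracted intensities and errors per spot and probe, not normalized between arrays. The file header names Feature Extraction 10.7.1.1 and the submitters' processing notes version 9.1. The labels describe a labelling kit for mRNA, so the labelling used is unclear. The authors also deposited log2 values normalized between the arrays in GeneSpring by a method that is not given in the sources used here. Column medians of these values were -2.61 (KPC) and -0.42 (MPDC).

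Total probe signals above 3 errors were summed per miRNA, undetected miRNAs were put at a floor of 0.1, and the log2 signals were quantile normalized across the arrays over 1881 miRNAs and 21 control features. The largest deviation from the deposited log2 values was 1.11e-05. The 110 members had 288 probes of 7 to 30 spots each. Names matched a RefSeq mature sequence for 106 members, and all 278 of their probes lay within it. miR-376c-3p, miR-485-5p, miR-487b-3p and miR-539-3p were not matched. Array positions are mm9 and sequences GRCm38.p6, and positions are given for mm9 only. Quantile normalization takes both signal distributions to be the same, which removes a difference in total miRNA and moves signals near the floor by another amount than bright ones. Calls were made at 2-fold for miRNAs detected on at least 1 array. Scanner errors of both arrays were combined in quadrature on the log2 scale and cover neither preparation nor culture.

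Named were members that reached a signal of 10 in either sample, members detected in KPC-exosomes only, miR-666-3p, miR-770-5p, miR-540-3p and miR-882, which the study followed up, and by name well known members. The study also measured the followed-up members by RT-qPCR and transfected mimics of them into muscle cells. Those results were not used here. One item of the genotype is not reported here. The members, lists and rules were chosen with earlier results of these data known. Calls and normalization were tested on simulated data. Both simulated arrays were made from the MPDC array and shared its detected miRNAs, so calls against the floor were not covered. Alternatives were no normalization, scaling by the 75th percentile, the median or 4 spike-in controls, quantiles over miRNAs detected on both arrays, normexp (limma 3.58.1 in R 4.3.3, offset 50), processed signals, the brightest probe, the deposited values, other error and fold thresholds, and bounds. Python 3.11.15, numpy 2.4.6 and pandas 2.3.3 were used.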

Additional observations from a re-analysis of the deposited data

How the results depend on the processing

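With 1 array for each condition the precision is that of the scanner, and signals near the floor have no reliable order. No paired analysis was possible because the labels give no replicate numbers and each condition has 1 sample. Detection in KPC-exosomes (25 members) stayed within 1.5 times under all alternatives, and that in MPDC-exosomes (34) did so except with at least 2 detected probes (21), an alternative chosen after seeing the data. Members called higher numbered 17. They were 9 without normalization and with spike-in scaling and 5 with normexp, and within 1.5 times otherwise. Members called lower numbered 16. They were 3 with normexp and with detection on both arrays, 9 at 4-fold, 4 with bounds in place of the floor and 8 with at least 2 detected probes on the same array, also added after seeing the data.

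The members' median log2 difference of 1.48 became -0.66 without normalization and -0.68 with spike-in scaling. It was 0.89 with the 75th percentile, 0.97 with the median, 0.88 with quantiles over miRNAs detected on both arrays, 0.30 with normexp and 0.71 with processed signals. It was 0.53 over members with at least 2 probes detected on both arrays, added after seeing the data. The members' median minus that of all miRNAs, 0.95, was 0.71 without normalization and with the scalings by 75th percentile, median and spike-ins. These scalings shift all miRNAs of an array alike and cannot change it. It was 0.13 with normexp, 0.60 with processed signals and 0.73 with the brightest probe. Adding the other miRNAs of the region, also after seeing the data, left the counts of higher and lower calls within 1.5 times and moved the median log2 difference by less than the scanner error.

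Of 226 alternative log2 differences of 27 named members, 15 reversed a difference of at least 2-fold, in 6 members. Without normalization and with spike-in scaling these were -0.66 and -0.68 for miR-770-3p, -0.10 and -0.13 for miR-666-5p, -1.57 and -1.59 for miR-300-5p, -0.20 and -0.22 for miR-134-5p, -0.26 and -0.29 for miR-668-3p, and -0.31 and -0.34 for miR-3072-5p. miR-300-5p also reversed with the 75th percentile (-0.023), with quantiles over miRNAs detected on both arrays (-0.36) and with processed signals (-0.12). Both scalings leave the difference between the arrays as a whole in place, and the cause of that difference was not tested.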

Other observations

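The RefSeq table places 7 further miRNAs of the array between Dlk1 and Dio3 whose numbers are not among those that define the members. They were chosen after their values were seen, and 6 of them were detected. miR-432, encoded within the span of Rtl1, had a signal of 699 ± 40.8 in KPC-exosomes and of 89.1 ± 5.28 in MPDC-exosomes (scanner error), 7.85-fold higher in KPC-exosomes without normalization and 24.0-fold higher after quantile normalization. Its 3 probes differed by log2 values of 2.84 to 3.13. Its sequence, with the seed in capitals, is given by RefSeq as follows.
miR-432: uCUUGGAGuagaucagugggcag

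miR-3544-5p had a signal of 22.4 ± 2.07 in KPC-exosomes and was not detected in MPDC-exosomes, while its partner miR-3544-3p had 13.7 ± 1.64 and 26.6 ± 2.35. miR-1906, encoded within Meg3, had 87.8 ± 6.51 and 547 ± 38.9, a 6.24-fold lower signal in KPC-exosomes without normalization and a 1.94-fold lower one after it. miR-1247-3p, which lies beyond miR-3072 towards Dio3, had 27.7 ± 2.38 and 99.6 ± 7.23, and miR-1247-5p was detected in MPDC-exosomes only (12.1 ± 1.65). miR-453 was not detected on either array. With these 7 included, 44 of the 116 miRNAs of the region on the array were detected.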
